A study of Mus musculus with 12 samples.

Results

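Amacrine cells are the inhibitory interneurons of the inner retina, and 10 genes that mark them by their transmitter or by their identity were followed across genotype and age. The genes were taken by symbol and are Gad1, Gad2, Slc32a1, Slc6a9, Th, Chat, Slc18a3, Calb2, Tfap2a and Tfap2b, 10 of the 53028 genes deposited, with 54 of the 141450 deposited transcripts. The assay was stranded poly(A) RNA-seq of mouse retina, with 12 libraries that fall into 4 groups of 3. These were Pilrb1/2 knockout retinas (Pilrb1/2 -/-, KO) at 12 months, wild-type retinas (Pilrb1/2+/+, WT) at 12 months, KO retinas at 28 days after birth (P28) and WT retinas at P28. Per the series text, CRISPR editing of C57BL/6J zygotes removed Pilra together with Pilrb1/2, and the line came from a founder crossed back to C57BL/6J, whereas the sample labels name Pilrb1/2 alone. No treatment is given for any group. Whether the 3 libraries stand for separate animals or pools is not given, so p-values measure the spread between these libraries, which may be technical.

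Most amacrine cells release GABA or glycine. GABA is made from glutamate by 2 decarboxylases, both inhibitory transmitters are loaded into synaptic vesicles by the same transporter, and glycinergic amacrine cells take glycine back up at the plasma membrane. Smaller populations add a second transmitter, such as the starburst cells, which release acetylcholine and shape direction selectivity, and the dopaminergic cells, which adjust the retina to light. AP-2 transcription factors are needed for amacrine cells to form and are used as their nuclear markers, and calretinin fills many of them as well as ganglion cells.

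The gene values are CPM, read numbers scaled to a common effective library size, and a fold change below is on the log2(CPM + 1) scale. Libraries held about 14718787 to 25879736 reads, estimated from the value of a single read, and 3 reads corresponded to 0.111 to 0.192 CPM, a floor that covers counting error only. Pilrb1 was at most 0.052 CPM and Pilrb2 at most 0.0436 CPM in any library, so the targeted genes could not check the genotype labels. Pilra, deleted per the series text, was at 0.0556, 0.309 and 0.293 CPM in the libraries labelled 12-month KO and at 0.159, 0.221 and 0.268 CPM in 12-month WT. It was at 0.441, 1.16 and 0.819 CPM in the libraries labelled P28 KO and at 0.133, 0.167 and 0.170 CPM in P28 WT, so its RNA was not absent under the KO label, and KO and WT here follow the labels alone. By Xist and Y-linked RNA, female libraries numbered 0 of 3 in 12-month KO, 2 of 3 in 12-month WT, 2 of 3 in P28 KO and 0 of 3 in P28 WT, so sex was unequal between genotypes at each age. Summed lens markers were highest in P28 KO library 2 (5756 CPM) and P28 WT library 3 (2207 CPM), which stood apart from the rest. The same sum was 868 CPM in 12-month KO library 2, against at most 58.7 CPM in 12-month WT. Of the 10 genes, 9 passed a filter of at least 1 CPM in at least 3 libraries and were tested with limma among 16486 genes. Th did not, and Slc18a3 passed with 6 libraries, among them all 3 of 12-month WT and none of 12-month KO.

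The genes lie on 7 chromosomes (GRCm38, coordinates as deposited). Gad2 (ENSMUSG00000026787, 22622205 to 22693874), Gad1 (ENSMUSG00000070880, 70553072 to 70602014) and Slc32a1 (ENSMUSG00000037771, 158610767 to 158615748) are all on the plus strand of chromosome 2. Chat (ENSMUSG00000021919) spans 32408203 to 32465989 on the minus strand of chromosome 14. Slc18a3 (ENSMUSG00000100241), a gene of a single exon, lies at 32462438 to 32464850 on the same strand, inside intron 1 of Chat-201, an intron of 4893 bases in GENCODE M21, so reads of Slc18a3 and of unspliced Chat RNA cannot be told apart there. Slc6a9 (ENSMUSG00000028542) is at 117834506 to 117875198 on chromosome 4 and Calb2 (ENSMUSG00000003657) at 110137502 to 110168210 on chromosome 8. Th (ENSMUSG00000000214) is at 142892752 to 142931128 on chromosome 7. Tfap2a (ENSMUSG00000021359) is at 40715302 to 40738376 on chromosome 13 and Tfap2b (ENSMUSG00000025927) at 19208914 to 19238576 on chromosome 1.

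Promoter windows from RefSeq (GRCm38.p6, 250 bases before to 50 after the start) matched 9 of the 10 genes with 12 windows. Shown are the windows of 3 genes that were lower in 12-month KO retinas (Chat, Slc18a3 and Slc32a1) and of Gad2, which was higher. They set side by side the letters around the starts of genes that moved in opposite directions. The start used for Gad2 (22622327) lies inside Gad2-201, which begins at 22622205. That for Chat (32465909) lies inside Chat-201, which begins at 32465957 on the minus strand. Capitals mark matches to the AP-2 consensus GCCNNNGGC, searched on both strands, which reads the same on either.
Chat, chr14:32465860-32466159, minus strand: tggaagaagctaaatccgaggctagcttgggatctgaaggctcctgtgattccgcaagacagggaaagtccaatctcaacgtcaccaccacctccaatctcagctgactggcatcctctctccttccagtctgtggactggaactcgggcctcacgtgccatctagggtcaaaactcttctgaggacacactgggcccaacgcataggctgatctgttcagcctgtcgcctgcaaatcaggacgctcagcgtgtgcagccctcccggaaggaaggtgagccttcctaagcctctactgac
Slc18a3, chr14:32464801-32465100, minus strand: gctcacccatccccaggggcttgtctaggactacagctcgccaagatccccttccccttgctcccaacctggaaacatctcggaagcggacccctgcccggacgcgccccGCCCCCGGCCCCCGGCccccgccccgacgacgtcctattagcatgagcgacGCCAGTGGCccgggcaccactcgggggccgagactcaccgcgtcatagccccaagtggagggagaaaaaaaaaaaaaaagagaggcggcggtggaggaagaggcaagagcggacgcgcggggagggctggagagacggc
Slc32a1, chr2:158610508-158610807, plus strand: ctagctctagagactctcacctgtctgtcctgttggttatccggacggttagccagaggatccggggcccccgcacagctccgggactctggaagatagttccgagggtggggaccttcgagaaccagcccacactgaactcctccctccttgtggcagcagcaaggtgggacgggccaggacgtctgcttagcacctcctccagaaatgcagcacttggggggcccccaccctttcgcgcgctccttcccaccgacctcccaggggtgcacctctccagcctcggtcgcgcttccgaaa
Gad2, chr2:22622077-22622376, plus strand: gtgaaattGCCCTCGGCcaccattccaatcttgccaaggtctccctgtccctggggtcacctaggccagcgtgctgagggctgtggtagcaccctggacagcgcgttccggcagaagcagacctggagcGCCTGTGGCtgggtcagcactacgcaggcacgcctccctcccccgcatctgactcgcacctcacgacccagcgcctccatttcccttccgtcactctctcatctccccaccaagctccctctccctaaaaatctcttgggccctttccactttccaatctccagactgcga

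The AP-2 consensus occurred 3 times in the Slc18a3 window, with 2 of the matches overlapping, and 2 times in the Gad2 window, so genes that moved in opposite directions both held it. It was not found in the windows of the other 7 matched genes, and 16.6% of all 32851 promoter windows hold it. The cAMP response element TGACGTCA occurred 1 time, in the Th window (1.79% of all windows). The letters TATAAA, searched on both strands, occurred 1 time, in the Gad1 window on the reverse strand (13.6% of all windows). GC content was 67% in the Slc18a3 window, 63.3% in Slc32a1, 61.3% in Gad2 and 55.7% in Chat, against a median of 52.7% over all windows.

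Levels per kilobase, taken as transcript RPKM summed over each gene, separated the genes widely. Over the 12 libraries Calb2, which encodes calretinin, averaged 128 RPKM and Gad1, the larger glutamate decarboxylase, 104 RPKM. Tfap2b (40.3 RPKM), Slc6a9 (20.02 RPKM), Gad2 (14.7 RPKM) and Tfap2a (11.1 RPKM) followed. The vesicular transporter gene Slc32a1 (2.34 RPKM), the choline acetyltransferase gene Chat (1.93 RPKM), the tyrosine hydroxylase gene Th (0.412 RPKM) and the vesicular acetylcholine transporter gene Slc18a3 (0.374 RPKM) were lowest.

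**Figure D1:**
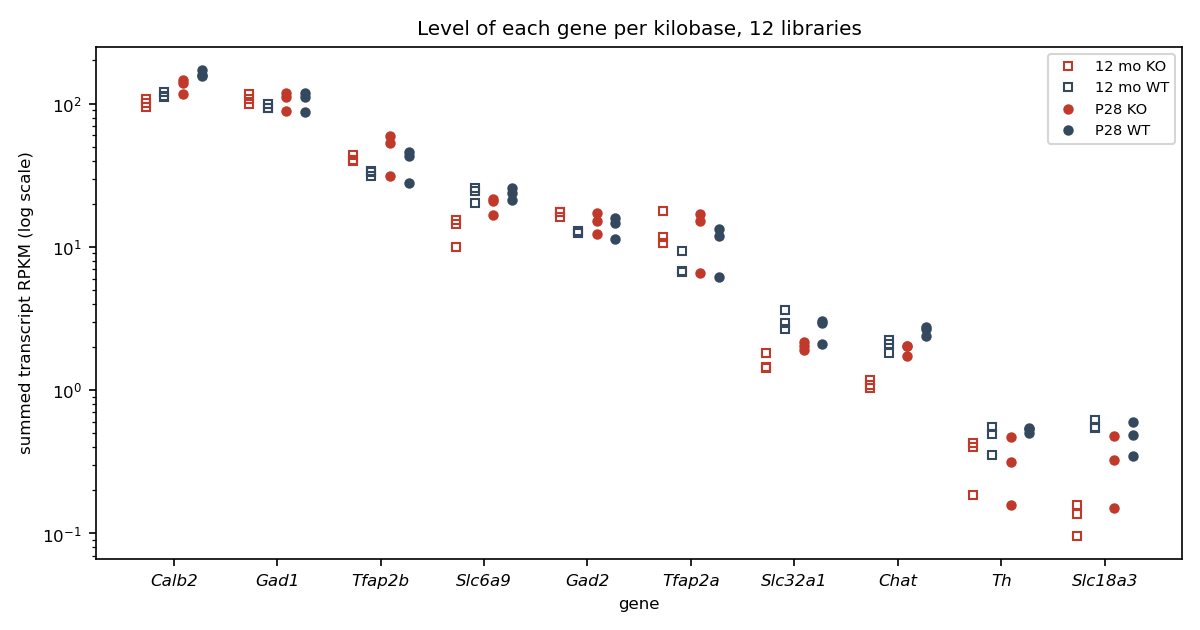
Summed transcript RPKM (log axis) of each gene in each of the 12 libraries, with genes ordered by their mean. Calb2 and Gad1 lie near 100 RPKM and Slc18a3 and Th below 1 RPKM. The 12-month KO libraries (open red squares) are the lowest for Calb2, Chat, Slc32a1 and Slc6a9.

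The order was not the same in every group. Calb2 and Gad1 averaged 101 and 108 RPKM in 12-month KO retinas, where their ranges overlapped, and 115 and 95.1 RPKM in 12-month WT retinas, where they did not. Slc6a9 ranked below Gad2 and overlapped Tfap2a in 12-month KO (13.3 RPKM for Slc6a9, 17.0 RPKM for Gad2), and stood clear above Gad2 in 12-month WT (23.6 against 12.7 RPKM). Slc18a3 was last in 12-month KO at 0.13 RPKM, clear of Th at 0.337 RPKM, whereas in 12-month WT the 2 genes overlapped at 0.573 and 0.469 RPKM.

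To see how loss of Pilrb1/2 bore on amacrine genes in the aged retina, KO was compared with WT at 12 months. Of the 9 tested genes, 4 were lower in KO (Slc32a1, Slc6a9, Chat and Slc18a3) and 1 was higher (Gad2), at an adjusted p under 0.05. The background was high in this comparison: 23.5% of all tested genes were lower in KO and 16.1% higher. The median log2 fold change was -0.21 over the 9 genes and -0.03 over all tested genes. Groups did not overlap for 8 of the 9, all but Gad1, against 59.1% of all tested genes. In bulk tissue, fewer cells of a type and less RNA per cell cannot be told apart.

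**Figure D2:**
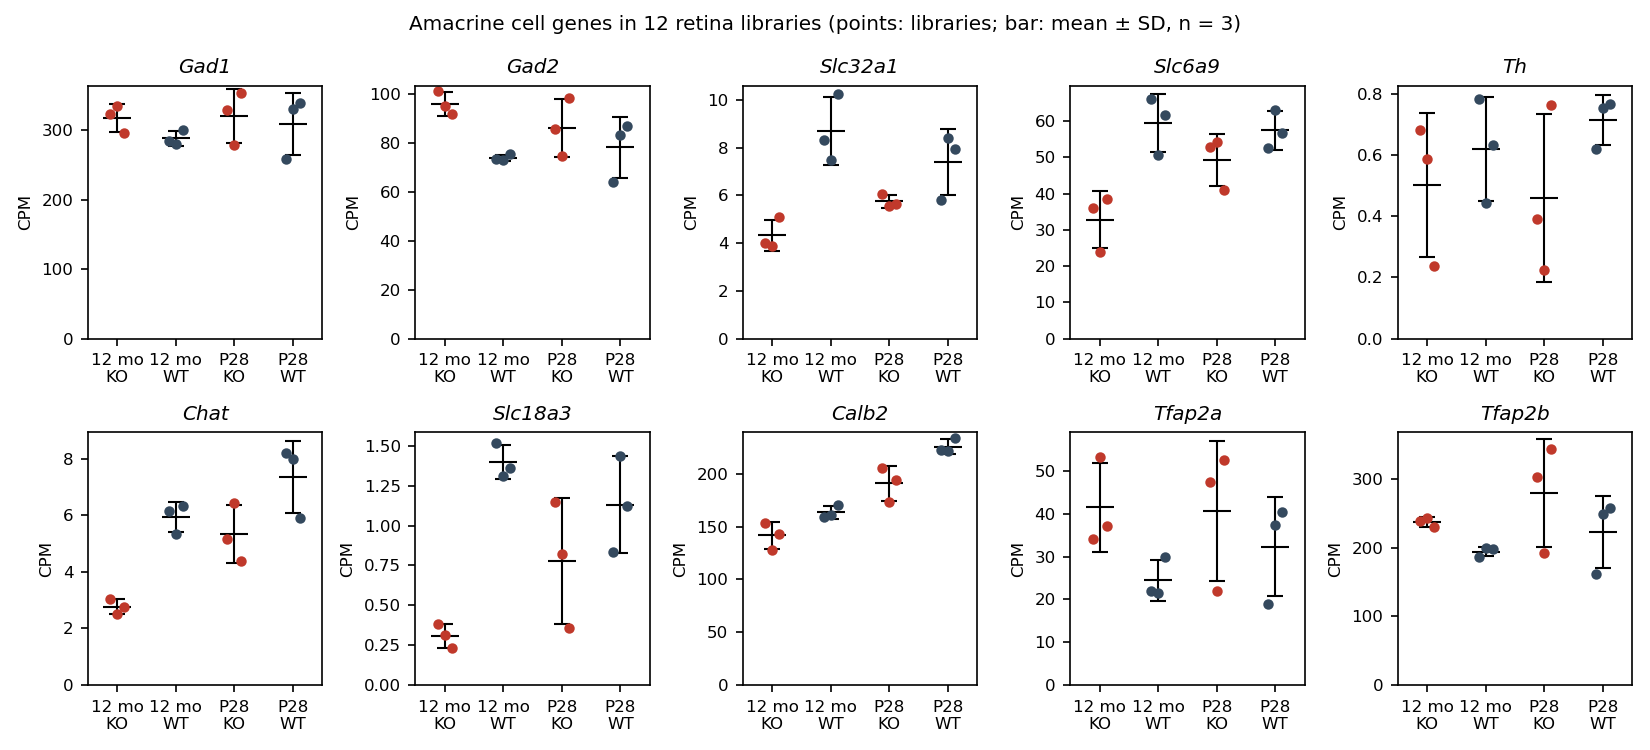
CPM of the 10 genes in every library at 12 months and P28, KO left of WT, with bars for the mean ± SD of 3 libraries. At 12 months the KO libraries lie below every WT library for Slc32a1, Slc6a9, Chat, Slc18a3 and Calb2 and above every WT library for Gad2, Tfap2a and Tfap2b.

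The GABA synthesis genes were flat or higher. Gad1 was at 324, 335 and 296 CPM in 12-month KO retinas and at 285, 280.4 and 301 CPM in 12-month WT retinas. KO library 3 lay within the WT range, and the log2 fold change of 0.14 ± 0.12 (limma SE) did not pass (adjusted p = 0.356). Gad2, whose product makes GABA near vesicles, was at 101, 95.2 and 91.8 CPM in KO and at 73.4, 73.1 and 75.4 CPM in WT. All KO libraries lay above all WT libraries, and Gad2 rose by a log2 fold change of 0.37 ± 0.12 (limma adjusted p = 0.0287). That call was lost without either of 12-month KO libraries 1 and 2 or any 12-month WT library (adjusted p 0.0647 to 0.0897).

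The transporter that fills vesicles with GABA and glycine moved the other way. Slc32a1 was at 4.02, 3.86 and 5.09 CPM in 12-month KO and at 8.34, 7.49 and 10.3 CPM in 12-month WT. The highest KO library was below the lowest WT library, and the log2 fold change was -0.86 ± 0.16 (limma adjusted p = 0.00333). The ratio of summed RPKM of Slc32a1 to Gad1 was 0.0147 ± 0.00327 in KO and 0.0322 ± 0.00402 in WT (SD, n = 3 each), a description with no test.

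Slc6a9, the plasma membrane glycine transporter GlyT1 that marks glycinergic amacrine cells, also fell. It was at 36.1, 24.0 and 38.5 CPM in 12-month KO and at 66.2, 50.6 and 61.8 CPM in 12-month WT. Every KO library was below every WT library, with a log2 fold change of -0.86 ± 0.17 (limma adjusted p = 0.00387).

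Both genes of the cholinergic locus fell. Chat, the enzyme that makes acetylcholine, was at 3.03, 2.52 and 2.76 CPM in 12-month KO and at 6.14, 5.35 and 6.32 CPM in 12-month WT, a log2 fold change of -0.88 ± 0.16 (limma adjusted p = 0.00313). Slc18a3, which loads acetylcholine into vesicles, was at 0.383, 0.314 and 0.231 CPM in KO, and at 1.52, 1.31 and 1.36 CPM in WT. The log2 fold change was -0.87 ± 0.17 (limma adjusted p = 0.00371), on a scale that understates changes of genes near 1 CPM. The KO values rested on 4.02 to 6.03 reads per library, against 29.9 to 36.8 reads in WT. The KO and WT ranges of both genes were far apart, and the ratio of summed RPKM of Slc18a3 to Chat averaged 0.118 ± 0.0254 in KO and 0.280 ± 0.0262 in WT (SD, n = 3 each).

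The dopamine gene Th stayed near the floor in whole retina. It was at 0.684, 0.589 and 0.237 CPM in 12-month KO and at 0.785, 0.444 and 0.634 CPM in 12-month WT, 4.12 to 18.002 reads a library. The groups overlapped at both ages and between ages, and without the filter on low values no contrast was called (12-month KO against WT, limma adjusted p = 0.682).

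The identity genes showed no call at 12 months. Calb2 was at 154, 128 and 143 CPM in KO and at 159, 161 and 171 CPM in WT, with a log2 fold change of -0.21 ± 0.09 (limma adjusted p = 0.0796). Tfap2a was at 34.0, 53.4 and 37.2 CPM in KO and at 21.9, 21.4 and 29.99 CPM in WT, a log2 fold change of 0.73 ± 0.33 (limma adjusted p = 0.0891). Tfap2b was at 239, 244 and 229.7 CPM in KO and at 186, 199 and 198 CPM in WT, a log2 fold change of 0.29 ± 0.20 (limma adjusted p = 0.263). Without P28 KO library 2, the library rich in lens RNA, which enters this fit through the pooled spread, Tfap2a (adjusted p = 0.0317) and Calb2 (adjusted p = 0.0382) were called at 12 months. Fitted on the 12-month groups alone, Tfap2a (adjusted p = 0.0134) and Tfap2b (adjusted p = 0.00776) were called. Calls over all 16486 tested genes rose as well, to 3413 higher and 4348 lower without P28 KO library 2. On the 12-month groups alone they were 3306 higher and 4172 lower, against 2655 and 3881 as first fitted.

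At 12 months the fold change of all tested genes followed the base composition of their transcripts. Among 20 bins of 813 or 814 genes, the median log2 fold change was 0.53 in the bin of lowest GC content (median 38.0%) and -0.76 in the bin of highest (median 59.4%). The 4 genes lower in KO had GC contents of 61.9% (Slc32a1), 61.2% (Slc18a3), 56.3% (Slc6a9) and 54.0% (Chat), against a median of 48.6% over tested genes. Gad2, the gene that rose, had 44.1%. With smooth trends in GC content and length removed from each library, Chat alone of the 9 was called at 12 months (log2 fold change -0.50 ± 0.13, limma adjusted p = 0.0411). Of all 16486 tested genes, 969 were then lower and 284 higher. Calb2 changed sign to 0.16 ± 0.10 (adjusted p = 0.2999) and Gad1 to -0.056 (adjusted p = 0.740). The values after removal were -0.31 for Slc6a9 (adjusted p = 0.0836), -0.24 for Slc32a1, -0.23 for Slc18a3 and 0.00 for Gad2 (adjusted p = 0.992). Chat was not called when a sex term (adjusted p = 0.139) or a replicate block (adjusted p = 0.052) was added to that removal. Tfap2a was at 0.71 ± 0.32 after removal (adjusted p = 0.170), close to its value before.

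**Figure D3:**
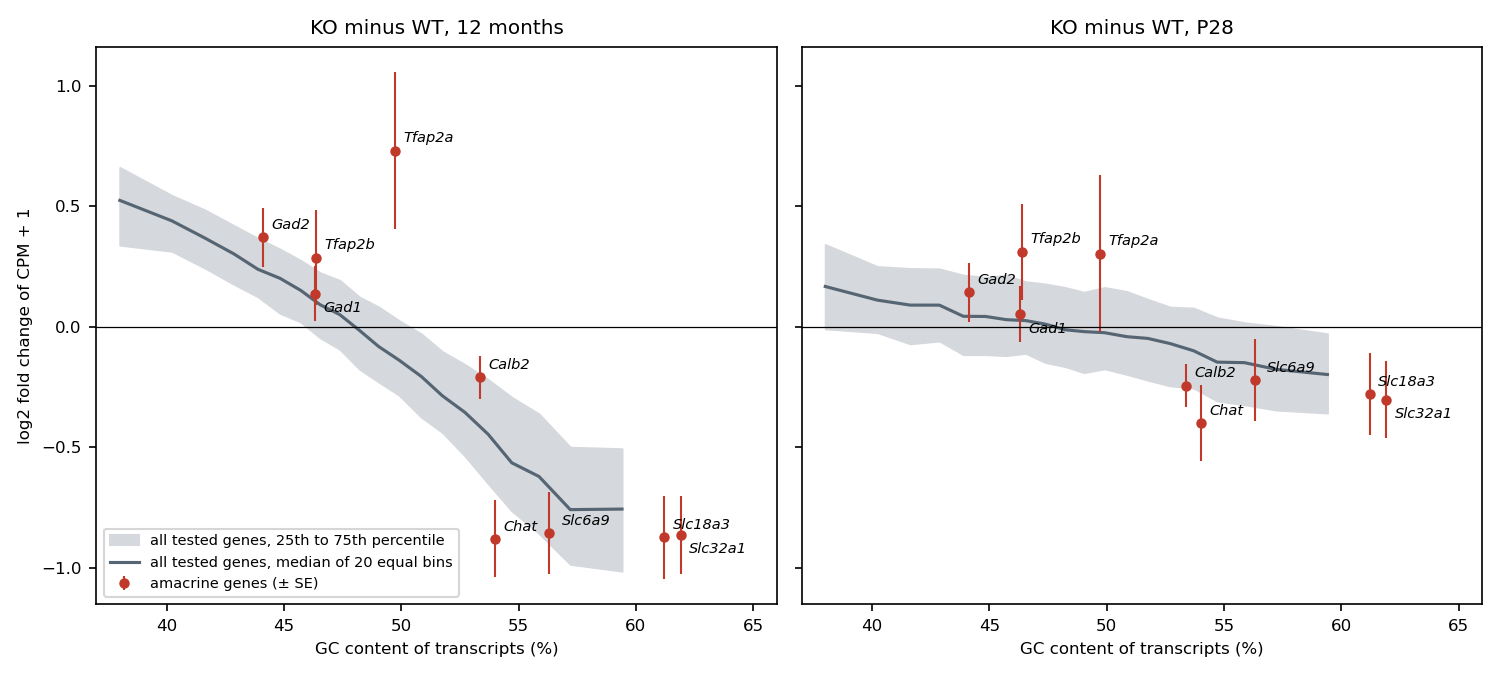
Log2 fold change, KO minus WT, against transcript GC content (%), at 12 months and P28. The line and band give the median and the 25th to 75th percentile of tested genes in 20 bins, and red points the 9 genes ± SE. At 12 months the median runs down to -0.76 with rising GC content. Slc6a9 lies below the median within the band and Chat below the band. Tfap2a and Tfap2b lie above the band, and Gad2 is at its upper edge. Slc32a1 and Slc18a3 lie to the right of the last bin.

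Other measures also moved with genotype at 12 months. Summed rod markers were 24984 to 31542 CPM in KO and 38832 to 45569 CPM in WT, and cone markers 962 to 1079 CPM in KO and 1431 to 1567 CPM in WT. Ganglion cell markers, a class that shares Calb2, summed to 801 to 880.3 CPM in KO and 718 to 784 CPM in WT. By gene, 2 of 10 tested ganglion cell markers rose and 3 fell, among them Thy1 (log2 fold change -1.11, limma adjusted p = 0.00281). Horizontal cell markers (294 to 365 CPM in KO, 373 to 391 CPM in WT), astrocyte markers (10.2 to 19.7 CPM in KO, 22.1 to 23.4 CPM in WT) and microglia markers (22.2 to 23.5 CPM in KO, 27.2 to 33.6 CPM in WT) did not overlap either. By gene, 2 of 7 tested horizontal cell markers rose and 1 fell, against the direction of their sum. Mueller glia markers summed to 3484 to 3605 CPM in KO and 3613 to 3990 CPM in WT. Bipolar cell markers summed higher in KO (1657 to 1741 CPM) than in WT (1601 to 1640 CPM). By gene, 3 of 12 tested bipolar cell markers fell and 0 rose. Erythrocyte markers summed to 4.33 to 9.94 CPM in KO and 19.2 to 34.1 CPM in WT. Mitochondrial RNA was 9.94 to 12.6% in KO and 7.36 to 8.29% in WT. The part of these in the amacrine results was not tested. With a sex term, Slc32a1 (log2 fold change -1.01), Slc18a3 (-1.01), Slc6a9 (-0.94) and Chat (-0.91) were called with adjusted p from 0.00812 to 0.0113, and Gad2 was not (adjusted p = 0.0967).

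At P28 none of the 9 genes was called by limma, against 1.49% of all tested genes called in either direction. Chat and Calb2, 2 of the 9, had an unadjusted p under 0.05, as did 21.4% of all tested genes. Calb2 was at 205, 173 and 195 CPM in P28 KO and at 222, 222 and 234 CPM in P28 WT. It was the only one of the 9 whose groups did not overlap, against 23.8% of all tested genes, and its log2 fold change was -0.24 ± 0.09 (limma adjusted p = 0.144). Chat was at 5.18, 6.45 and 4.40 CPM in KO and at 8.19, 7.97 and 5.90 CPM in WT (log2 fold change -0.40 ± 0.16, adjusted p = 0.177).

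The other genes at P28 had KO and WT ranges that overlapped. Slc32a1 was at 6.05, 5.55 and 5.65 CPM in KO and at 5.82, 8.41 and 7.96 CPM in WT (log2 fold change -0.30). Slc6a9 was at 52.8, 54.2 and 41.1 CPM in KO and at 52.5, 63.2 and 56.8 CPM in WT (log2 fold change -0.22). For Slc32a1 2 of the 3 KO libraries lay below the WT range and for Slc6a9 1 did. Slc18a3 was at 1.15, 0.819 and 0.360 CPM in KO and at 0.832, 1.44 and 1.12 CPM in WT (log2 fold change -0.28).

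The GABA synthesis genes at P28 overlapped too. Gad1 was at 329, 278 and 354 CPM in KO and at 259, 330.3 and 339.8 CPM in WT (log2 fold change 0.05). Gad2 was at 85.7, 74.5 and 98.4 CPM in KO and at 64.0, 83.3 and 87.1 CPM in WT (log2 fold change 0.14). The lowest KO library was number 2 for both genes.

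The AP-2 factors varied widely among P28 libraries. Tfap2a was at 47.5, 22.0 and 52.6 CPM in KO and at 19.0, 37.4 and 40.3 CPM in WT (log2 fold change 0.30 ± 0.33). Tfap2b was at 304, 192 and 344 CPM in KO and at 162, 249 and 258 CPM in WT (log2 fold change 0.31 ± 0.20). The low libraries were the same for both factors, KO library 2 and WT library 1. Without KO library 2, Tfap2b was called (log2 fold change 0.56, limma adjusted p = 0.048). Without that library and WT library 3 together, Tfap2b (0.68, adjusted p = 0.0402) and Chat (-0.65, adjusted p = 0.0443) were called. Calls over all 16486 tested genes rose as well, to 889 higher and 515 lower without KO library 2. They were 520 higher and 247 lower without both libraries, against 165 and 81 as first fitted. The share of lens RNA in these values was not tested.

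**Figure D4:**
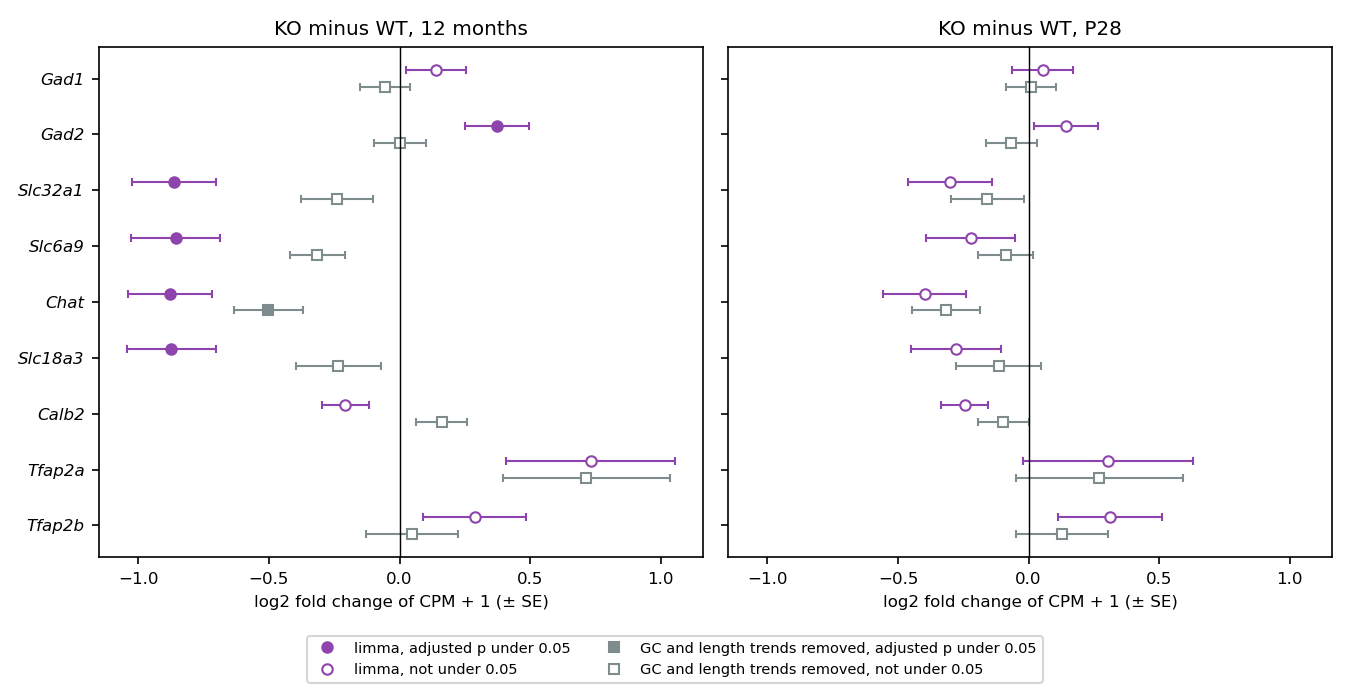
Log2 fold change of CPM + 1, KO minus WT, with its limma SE for the 9 tested genes at 12 months and P28, as fitted (circles) and after removing GC and length trends (squares). Filled symbols have an adjusted p under 0.05: 5 circles and 1 square (Chat) at 12 months, none at P28.

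Over both ages, 5 genes were lower and 1 higher in KO, against 20.8% and 14.3% of all tested genes. The log2 fold changes were -0.64 ± 0.11 for Chat (limma adjusted p = 0.0028), and lower in KO too were Slc32a1 (-0.58), Slc18a3 (-0.58), Slc6a9 (-0.54) and Calb2 (-0.23, adjusted p = 0.0162). Their order depends on the pseudocount, since at 0.1 CPM Slc18a3 was at -1.23 and Chat at -0.76. Gad2 was higher (0.26 ± 0.09, adjusted p = 0.0347), and this call was lost without any of 8 libraries, namely P28 KO 1 and 3, P28 WT 1, 12-month KO 1 and 2, and 12-month WT 1, 2 and 3. After removal of the GC and length trends Chat alone was called over both ages (log2 fold change -0.41 ± 0.09, adjusted p = 0.0192), also with a sex term (adjusted p = 0.0268). Of all 16486 tested genes, 1536 were lower and 407 higher after that removal. Calb2 (0.033) and Gad2 (-0.032) then changed sign.

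The KO effect at 12 months was compared with that at P28 by the difference of the 2 fold changes. No member was called by limma, against 0.176% of all tested genes called in either direction. An unadjusted p under 0.05 was found for 3 of the 9 and for 26.7% of all tested genes. The most negative differences were in Slc6a9 (-0.63 ± 0.24, adjusted p = 0.130), Slc18a3 (-0.60, adjusted p = 0.148), Slc32a1 (-0.56, adjusted p = 0.147) and Chat (-0.48, adjusted p = 0.193). Without P28 KO library 3, Slc18a3 was called (-0.77, adjusted p = 0.0364). Calls over all 16486 tested genes rose as well in that fit, to 1286 negative and 1215 positive differences.

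Age was compared within each genotype. In KO retinas, 12 months against P28, 3 genes were lower and 0 higher, against 13.9% and 13.3% of all tested genes. Chat fell by 0.74 ± 0.16 on the log2 scale (limma adjusted p = 0.00599), Calb2 by 0.43 ± 0.09 (adjusted p = 0.00512) and Slc6a9 by 0.59 ± 0.17 (adjusted p = 0.0234). For each of the 3 genes, and for Slc32a1, which was not called, all 12-month KO libraries lay below all P28 KO libraries, and groups did not overlap for 36.0% of all tested genes. The Slc6a9 call was lost without P28 KO library 1 or 2 or 12-month KO library 2 (adjusted p 0.063 to 0.0924), and Slc18a3 was called without P28 KO library 3 (adjusted p = 0.0161). In the fit without P28 KO library 3, 2859 of all tested genes were lower and 2680 higher. After removal of the GC and length trends, Calb2 (log2 fold change -0.25, adjusted p = 0.0869) and Slc6a9 (-0.29, adjusted p = 0.0739) were lost. Chat was still called (-0.52, adjusted p = 0.0157), but not with a sex term besides (adjusted p = 0.0717). After removal of the trends 2034 of all tested genes were lower and 1518 higher.

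In WT retinas, 12 months against P28, Calb2 alone was lower and no gene higher, against 1.75% and 3.65% of all tested genes. Its 12-month WT libraries, at 159 to 171 CPM, all lay below its P28 WT libraries, at 222 to 234 CPM, and groups did not overlap for 34.9% of all tested genes (log2 fold change -0.46 ± 0.09, limma adjusted p = 0.00866). It held with GC and length trends removed (-0.51, adjusted p = 0.00679) but not with a sex term (-0.38, adjusted p = 0.098). After removal of the trends 418 of all tested genes were lower and 845 higher. Chat was at -0.26 ± 0.16 between ages in WT (adjusted p = 0.405) and Slc6a9 at 0.04 ± 0.17 (adjusted p = 0.919). These 2 age comparisons share no libraries, but each shares libraries with the genotype comparisons.

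Transcript values (RPKM, tested on log2(RPKM + 0.1)) were tested in the same way. Of the 54 transcripts 42 were above 0 in some library and 30 were tested, with 5 lower and 0 higher in KO at 12 months, against 5.68% of all tested transcripts lower. These were Gad1-201, Slc6a9-202, Slc18a3-201, Chat-201 and Slc32a1-201. The same 5 and Calb2-201 were lower over both ages (5.15% of all), Calb2-201 and Chat-201 in KO with age (1.99% of all), and none was called at P28 (0.144% of all, either direction). These 13 calls over 6 contrasts became 0 without 12-month WT library 1 and 2 without 12-month WT library 3. They became 4 without 12-month KO library 2, and 6 without 12-month KO library 1 or P28 WT library 1. They became 7 without 12-month WT library 2, and 8 without 12-month KO library 3 or P28 WT library 2. Of all 71487 tested transcripts, 4057 were lower in KO at 12 months. That number was 117 without 12-month WT library 1, 327 without 12-month WT library 3 and 4480 without 12-month KO library 3.

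The 2 main Gad1 transcripts had fold changes of opposite sign, and the difference between them was not tested. Gad1-201, which encodes the full decarboxylase, was at 3.09, 1.23 and 2.58 RPKM in 12-month KO and at 12.1, 9.57 and 7.25 RPKM in 12-month WT. Every KO library was below every WT library (log2 fold change -2.08 ± 0.36, limma adjusted p = 0.0155), and the call was lost without 12-month WT library 1 (adjusted p = 0.0731). Gad1-206, annotated as a processed transcript without a coding sequence, was at 101.8, 115 and 94.7 RPKM in KO and at 80.1, 82.1 and 90.3 RPKM in WT (log2 fold change 0.30 ± 0.17, adjusted p = 0.284). Gad1-201 made up 2.18 ± 0.989% of the summed Gad1 RPKM in 12-month KO and 10.2 ± 2.83% in 12-month WT (SD, n = 3 each). At P28 the share was 6.32 ± 3.72% in KO and 8.44 ± 3.21% in WT, with overlapping ranges.

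The 2 forms join different exons to the same exon at chr2:70567186-70567248, and these 30 bases across the junction are shown because reads over them tell the forms apart. Capitals mark the shared exon (GENCODE M21 transcripts, GRCm38).
Gad1-201: acctgcgccctacaaCGTATGATACTTGGT
Gad1-206: cagacctggagaaagCGTATGATACTTGGT
Gad1-201 has 434 bases in 2 exons before the shared exon, at 68.2% GC, and Gad1-206 has 77 bases in 1 exon, at 67.5% GC.

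Of the 2 main forms of Slc6a9 1 was called, and their difference was not tested either. Slc6a9-202 was at 3.81, 2.45 and 5.33 RPKM in 12-month KO and at 12.4, 8.20 and 13.4 RPKM in 12-month WT (log2 fold change -1.56 ± 0.33, limma adjusted p = 0.0238). Slc6a9-210 was at 8.18, 6.43 and 7.62 RPKM in KO and at 7.73, 8.66 and 7.08 RPKM in WT, where the groups overlapped (log2 fold change -0.08 ± 0.14, adjusted p = 0.760). Slc6a9-202 thus made up 28.5 ± 5.34% of the summed Slc6a9 RPKM in KO and 47.7 ± 7.19% in WT, and Slc6a9-210 56.7 ± 7.28% in KO and 33.8 ± 7.71% in WT (SD, n = 3 each). The Slc6a9-202 call was lost without 12-month KO library 1 or 2 or 12-month WT library 1 or 3 (adjusted p 0.0534 to 0.0961).

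Slc6a9-202 holds 2 internal exons of 289 bases in all, between chr4:117855875 and 117856821, that Slc6a9-210 lacks. The junction that leaves the shared exon chr4:117843019-117843135 separates the forms, and capitals mark that exon.
Slc6a9-202: GCCAAAGGGATGTTGaatggtgctgtgccc
Slc6a9-210: GCCAAAGGGATGTTGgcgtgggctatggta
After removal of GC and length trends from the transcript values, chosen after seeing the data, 3 of the 13 transcript calls were left, all lower.

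**Figure D5:**
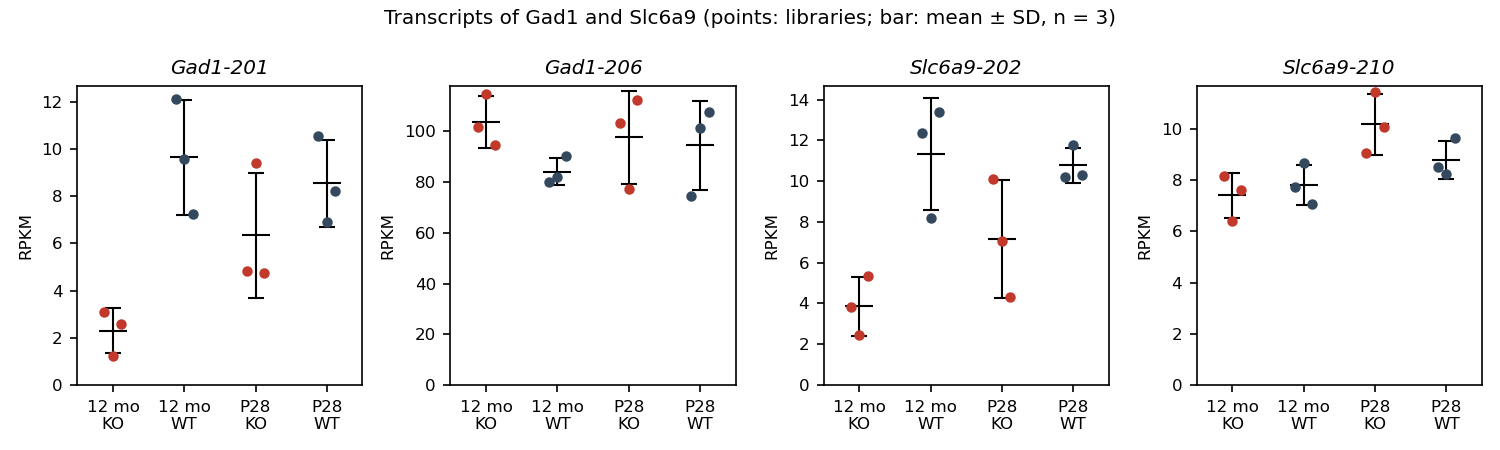
RPKM of Gad1-201, Gad1-206, Slc6a9-202 and Slc6a9-210 in each library, with the mean ± SD of 3. At 12 months the KO libraries lie below every WT library for Gad1-201 and Slc6a9-202, lie above for Gad1-206, and overlap the WT libraries for Slc6a9-210.

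The remaining transcripts added little. Calb2-202, a minor coding form, was at 8.15, 5.92 and 5.90 RPKM in 12-month KO and at 3.46, 3.48 and 2.71 RPKM in 12-month WT, where the ranges did not overlap (log2 fold change 1.02 ± 0.32, limma adjusted p = 0.0692). Its share of Calb2 was 6.56 ± 0.895% in KO and 2.82 ± 0.482% in WT (SD, n = 3 each). Tfap2a-201 averaged 65.7% of the summed Tfap2a RPKM, and in 12-month KO library 2, which also had the most lens and corneal marker RNA at that age, it was at 13.99 RPKM, against 6.76 and 7.32 RPKM in the other KO libraries and 4.24 to 5.92 RPKM in WT.

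Other genes of each transmitter system were counted at 12 months, KO against WT, in lists that hold none of the 10 genes. Median log2 fold changes were -0.20 for GABA handling, -0.03 for glycine handling, 0.05 for dopamine handling, 0.24 for acetylcholine and starburst genes, 0.29 for amacrine transcription factors and 0.04 for peptide and subtype genes, against -0.03 over all tested genes. The background, given above, was 16.1% of all tested genes higher and 23.5% lower. Of 7 GABA handling genes tested 1 rose and 1 fell. The GABA transporter gene Slc6a11 fell (log2 fold change -0.55, limma adjusted p = 0.00832). Of 7 glycine handling genes tested 3 fell, all of mitochondrial glycine metabolism, Shmt2 (-0.94, adjusted p = 0.0109), Gldc (-0.73, adjusted p = 0.0146) and Amt (-0.43, adjusted p = 0.0352). Slc6a5, the neuronal glycine transporter GlyT2, was at 35.5, 33.9 and 32.5 CPM in KO and at 35.8, 35.5 and 32.7 CPM in WT (log2 fold change -0.03 ± 0.11).

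Of 11 dopamine handling genes tested 1 rose and 3 fell. Spr, which completes the cofactor of tyrosine hydroxylase (-1.16, limma adjusted p = 0.00459), and the dopamine receptor gene Drd4 (-0.80, adjusted p = 0.00972) fell, and Maoa, a monoamine oxidase, rose (0.39, adjusted p = 0.0443). Ddc, the decarboxylase after tyrosine hydroxylase, was at 0.22 (adjusted p = 0.297) and the vesicular monoamine transporter gene Slc18a2 at 0.53 (adjusted p = 0.0694).

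Of 9 acetylcholine and starburst genes tested 2 rose and 2 fell. Slc5a7, the choline transporter that feeds acetylcholine synthesis, was at 33.5, 40.4 and 32.5 CPM in 12-month KO and at 19.4, 21.5 and 23.0 CPM in 12-month WT. All KO libraries were above all WT libraries (log2 fold change 0.71 ± 0.16, limma adjusted p = 0.00566), in the direction opposite to Chat and Slc18a3. Sox2, a starburst cell factor also present in Mueller glia, rose (0.77, adjusted p = 0.0457). Ache, which breaks acetylcholine down (-1.07, adjusted p = 0.00607), and the nicotinic receptor gene Chrnb2 (-0.51, adjusted p = 0.00778) fell. None of the 4 was called once GC and length trends were removed, and Slc5a7 was at 0.10 (adjusted p = 0.559).

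Of 18 amacrine transcription factor genes tested 7 rose and 0 fell. Neurod1, a neurogenic factor also strong in photoreceptors, was at 513, 582 and 469.9 CPM in 12-month KO and at 252, 246 and 290.4 CPM in 12-month WT (log2 fold change 0.99 ± 0.20, limma adjusted p = 0.00435). Neurod4 (0.79, adjusted p = 0.0219), Lhx9 (0.59, adjusted p = 0.0185) and Nfia (0.54, adjusted p = 0.0355) rose as well, and the other calls were Prox1 (0.40), Ebf1 (0.37) and Bhlhe22 (0.67). Once those trends were removed, Neurod1 (0.64, adjusted p = 0.0490) and Prdm13 (0.98, adjusted p = 0.0261) were called. Of 14 peptide and subtype genes tested 1 rose, the calbindin gene Calb1 (0.49, adjusted p = 0.0321), and 2 fell, the parvalbumin gene Pvalb (-0.60, adjusted p = 0.0127) and the cholecystokinin gene Cck (-0.56, adjusted p = 0.0453). Pvalb was called after that removal too (-0.55, adjusted p = 0.0441). At P28 none of the genes in these 6 lists was called as first fitted, against 1.49% of all tested genes in either direction. With GC and length trends removed, 1 gene of these lists was called at P28, Vip, which was lower in KO. Under that setting 163 of all 16486 tested genes were lower.

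With age, Maob, the second monoamine oxidase, rose in both genotypes. It was at 11.3, 11.2 and 10.1 CPM in 12-month KO against 2.06, 2.38 and 1.89 CPM in P28 KO (log2 fold change 1.94 ± 0.14, limma adjusted p = 4.34e-06). It was at 10.4, 11.1 and 9.87 CPM in 12-month WT against 3.26, 2.28 and 3.29 CPM in P28 WT (log2 fold change 1.55 ± 0.14, adjusted p = 3.42e-05). Calb1 fell in WT with age (-0.73, adjusted p = 0.0216), beside Calb2, and in KO the neuropeptide gene Npy fell (-0.93, adjusted p = 0.00184).

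Patterns like those of the 3 most variable members were sought among all tested genes, as the mean absolute difference of centred log2(CPM + 1) over the 12 libraries. Nearest to Tfap2a were Rhob (0.129), Pou4f2 (0.139), a ganglion cell factor, and Nudt10 (0.142), where the median over all genes was 0.472. Nearest to Slc6a9 were Pfkm (0.0444), Usp30 (0.0681) and Psap (0.0693), with a median of 0.363. Nearest to Chat were Bak1 (0.0886), Spg7 (0.102) and Qsox1 (0.104), with a median of 0.415. None of these 9 is among the 10 genes described here.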

How the data were processed

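For genes the authors deposited a signal, CPM of a TMM-scaled library, and for transcripts the authors deposited RPKM. Ensembl 102, kallisto 0.45.0 for quantification, tximport 1.30.0 for gene sums and edgeR 4.0.3 for scaling are named, per the submitters' processing notes. The notes name the human build GRCh38.p7, whereas the deposited identifiers and coordinates are those of mouse. From 11.0 to 28.4% of low gene values were whole reads within 0.01 reads, so no count model was used.

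Tested were genes that reached 1 CPM in 3 or more libraries, on log2(CPM + 1), and transcripts that reached 0.1 RPKM in as many, on log2(RPKM + 0.1). limma 3.58.1 (R 4.3.3) fitted 4 group means to 12 libraries, with a trend in eBayes and Benjamini-Hochberg adjustment over all features at 0.05. GC and length trends were natural splines of 5 degrees of freedom in each library, and 98.7% of tested genes had both values. Rows of genes repeated on patch sequences were left out of the lists. The steps were tested on simulated data. The members and lists were chosen with earlier results of these data known. Named from the other lists are up to 4 called genes by smallest p, with others named to make a count clear after their values were seen. Some genes of these lists are not reported here. Figures were made with matplotlib 3.10.9.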

Additional observations from a re-analysis of the deposited data

How the results depend on the processing

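Counts of members called are given as the number past an adjusted p of 0.05 in limma. At P28 the count was 0, and 2 without P28 KO library 2 and P28 WT library 3 together. In the latter fit 520 of all 16486 tested genes were higher and 247 lower. At 12 months it was 5, but 1 with GC and length trends removed, and 0 when a replicate block or a sex term was added to that. Over both ages it was 6, and 1 under each of these 3 settings. For WT with age it was 1, and 0 with a sex term, with or without trend removal. For KO with age it was 3. It was 1 when only the groups compared were fitted, 1 with trends removed, 1 with trends removed and a replicate block, and 0 with trends removed and a sex term. Of the 13 transcript calls, 8 were left with a replicate block and 3 with trends removed. The replicate block alone left the gene counts at 0, 5, 6, 0, 1 and 3. Replicate numbers were not taken as a pairing, since correlations of same-numbered libraries ran from -0.107 to 0.0879 at P28 and from 0.0989 to 0.309 at 12 months. Leaving out each library gave 0 to 1 calls at P28, 4 to 7 at 12 months, 5 to 8 over both ages, 0 to 1 for the difference between ages, 1 for WT with age, 2 to 4 for KO with age and 0 to 17 for transcripts. Signs turned for Gad2 at 12 months (-0.072, trends removed with a sex term), and over both ages for Calb2 (0.033) and Gad2 (-0.032), under trend removal alone, with a replicate block and with a sex term. Among genes not called at 12 months, the sign turned for Calb2 and Gad1 under these 3 settings and for Tfap2b (-0.090) with trends removed and a sex term. The cause was not tested. The combined trend and sex setting and trend removal for transcripts were chosen after seeing the data. Over all genes at 12 months, 2655 were higher and 3881 lower, against 284 and 969 with trends removed, and 3 and 5 with a sex term besides. Chat was called at 12 months in 24 of 26 alternatives, Slc32a1 and Slc6a9 in 23, Slc18a3 in 22 of 25 and Gad2 in 16 of 26. A filter of 1 CPM in all 12 libraries left no value for Slc18a3, and the contrasts that use all 4 groups have no fit of fewer groups. Depth limits Th and Slc18a3, which rest on few reads.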
